A study of Mus musculus with 20 samples.

Results

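The nuclear-encoded subunits of the mitochondrial respiratory chain and ATP synthase were followed in ribosome-bound RNA of mouse hippocampal granule cells over the first postnatal weeks. Members were the genes whose symbols begin Nduf followed by a, b, s, v or c and a number (complex I), Uqcr (complex III), Cox4 to Cox8 (complex IV) or Atp5 (complex V), without names that hold -ps. The rule used names alone and no measured values. It found 80 of 32245 genes, with 37 in complex I, 8 in complex III, 18 in complex IV and 17 in complex V, and 1 name (Ndufb1-ps) was left out. All mice carried Rbp4-Cre, in which regulatory sequence of Rbp4 drives Cre recombinase, and the RiboTag allele, in which Cre recombination adds an HA tag to the ribosomal protein RPL22. The tagged ribosomes of whole hippocampus were pulled down with anti-HA beads, the labels call the cells granule cells, and the 20 bulk libraries fall into 6 ages: postnatal day 5 (P5, 5 libraries), P7, P10, P15, P21 and P28 (3 each). P5 libraries stood in batches A (3) and B (2), P7 in B, P10 and P15 in A, and P21 and P28 in C, where a batch is the date given in the labels. The labels name no treatment and no second genotype. Sex, pooling and whether the libraries of an age are separate animals are not stated by the labels, so p-values measure the spread between these libraries, which may be technical.

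The respiratory chain sits in the inner mitochondrial membrane. Complex I (NADH dehydrogenase) and complex II feed electrons through ubiquinone to complex III, cytochrome c carries them to complex IV (cytochrome c oxidase), and complexes I, III and IV pump protons that drive complex V, the ATP synthase. Complexes I, III, IV and V each combine subunits made from nuclear genes with a few made from mitochondrial DNA, whereas all subunits of complex II are nuclear. Neurons draw most of their ATP for ion pumping and synaptic transmission from this pathway, and dentate granule cells form dendrites and synapses during the weeks sampled here.

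Several nuclear genes of the chain carry sites for the transcription factors NRF1 and GABP near their start, and 4 promoters are printed to show where such letters stand in members that hold them. In each complex the member with the highest change from P5 to P15 was taken among those with a mean of at least 5 CPM, a single RefSeq window and a match in the printed stretch, a choice made after the values were seen. Asking for a match, to letters of any of 4 factors (NRF1, GABP, YY1 or the estrogen-related receptors), decides which members are shown. Ndufs7 and Ndufa1 are complex I members with higher changes (1.05 and 0.95 on the log2 scale) than the one printed. Their windows held no NRF1 or GABP letters, and the YY1 letters in the Ndufs7 window lay outside the stretch that would be printed. Each stretch runs 5′ to 3′ on the gene's strand from 250 bases before to 30 bases after the start given by RefSeq, in build GRCm38.p6. Capitals mark a match, on either strand, to the NRF1 letters GCGCANGCG or the GABP letters CCGGAAG.
Ndufs3 (complex I), chr2:90904692-90904971, minus strand: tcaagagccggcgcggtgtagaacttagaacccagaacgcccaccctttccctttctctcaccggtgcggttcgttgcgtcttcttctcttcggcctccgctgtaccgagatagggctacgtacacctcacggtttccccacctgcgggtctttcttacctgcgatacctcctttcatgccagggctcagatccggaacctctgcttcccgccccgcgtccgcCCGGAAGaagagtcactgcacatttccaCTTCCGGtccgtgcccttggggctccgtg
Uqcr11 (complex III), chr10:80406792-80407071, minus strand: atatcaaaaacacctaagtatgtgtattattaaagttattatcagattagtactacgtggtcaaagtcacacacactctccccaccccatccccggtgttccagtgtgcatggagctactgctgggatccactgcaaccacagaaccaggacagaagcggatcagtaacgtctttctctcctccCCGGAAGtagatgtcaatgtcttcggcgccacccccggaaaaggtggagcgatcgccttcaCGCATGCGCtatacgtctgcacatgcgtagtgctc
Cox8a (complex IV), chr19:7217587-7217866, minus strand: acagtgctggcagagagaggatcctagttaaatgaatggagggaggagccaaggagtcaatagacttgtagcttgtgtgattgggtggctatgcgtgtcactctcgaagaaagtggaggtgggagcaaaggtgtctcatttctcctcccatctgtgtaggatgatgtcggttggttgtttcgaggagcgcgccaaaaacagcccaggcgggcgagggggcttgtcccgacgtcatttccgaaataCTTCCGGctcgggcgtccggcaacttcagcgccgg
Atp5h (complex V), chr11:115419890-115420169, minus strand: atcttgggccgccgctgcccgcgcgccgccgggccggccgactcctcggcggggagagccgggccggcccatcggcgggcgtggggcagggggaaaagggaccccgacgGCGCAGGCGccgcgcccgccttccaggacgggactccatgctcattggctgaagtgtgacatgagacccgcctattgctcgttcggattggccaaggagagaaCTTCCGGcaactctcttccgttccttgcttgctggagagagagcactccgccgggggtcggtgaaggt
The Ndufs3 stretch held 2 GABP matches on opposite strands, at bases 224 to 230 and 252 to 258 counted from its first base. In Uqcr11 a GABP match lay at bases 185 to 191 and an NRF1 match at 246 to 254. Cox8a had a GABP match at 246 to 252. Atp5h had an NRF1 match at 110 to 118 and a GABP match at 213 to 219. A match is a stretch of letters, and binding was not measured here.

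Library totals ran from 15862204 counts in a P5 library to 24933541 in a P7 library, and levels are given as CPM, the counts divided by the TMM-scaled library size. By the unscaled totals, 3 counts come to 0.12 to 0.189 CPM. The defining markers of granule cells were present at all ages: Prox1, the transcription factor of these cells, stood at 547 CPM at P5 and 515 at P28, Calb1 at 603 and 602, and 6 of 8 granule cell markers rose from P5 to P15. Markers of other cells were present too. The summed oligodendrocyte lineage list (8 genes) ran from 89.6 to 151 CPM at P5, 161 to 294 at P10 and 381 to 662 at P15, with 5 of 8 rising from P5 to P15 and 3 falling. The interneuron list (8 genes) ran from 160 to 185 CPM at P5 and 272 to 328 at P15 (6 of 8 rose and 1 fell), and the endothelial list (6 genes) fell in 6 of 6, from 42.0 to 79.2 CPM to 17.0 to 23.1. The microglial list (6 genes) ran from 19.3 to 23.9 CPM at P5 and 26.6 to 39.9 at P15, with 4 rising. No marker of these lists averaged 0 at any age, although Mog (0.021 CPM) and Pvalb (0.066 CPM) were close to it at P5. The CA pyramidal cell list (8 genes) had the highest sum of the other cells' lists at P5. It ran from 445 to 622 CPM at P5, 408 to 955 at P10 and 424 to 609 at P15. From P5 to P15, 1 of its genes rose and 2 fell, and from P7 to P10 none rose and 1 fell. The choroid plexus and ependymal list (4 genes) ran from 199 to 387 CPM at P5 and 86.9 to 218 at P15 (1 rose and 2 fell). At the step from P7 to P10, 5 of 6 endothelial, 5 of 8 mural, 4 of 6 astrocyte and 4 of 4 Cajal-Retzius markers fell and none of them rose. The summed endothelial level ran from 43.8 to 57.4 CPM at P7 and 18.4 to 23.5 at P10, the mural one from 60.7 to 78.7 CPM and 32.6 to 41.3, the astrocyte one from 383 to 399.9 CPM and 189 to 299.7, and the Cajal-Retzius one from 68.7 to 92.1 CPM and 31.6 to 38.8. At that step 6 of 8 granule cell markers rose, 3 of 8 interneuron markers rose and 1 fell, and 2 of 8 oligodendrocyte markers rose and 3 fell. From P10 to P15, 4 of 8 oligodendrocyte genes rose and none fell. The part of all these cells in the subunits' values was not tested. In bulk libraries, fewer cells of a type and less RNA per cell cannot be told apart.

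Nearly the whole module stepped up between P7 and P10. Most members were still higher at P28 than at P5, although some, complex IV genes among them, fell from P15 to P21. Of the 80 members, 76 passed the filter on low counts and were tested, each over all 15373 genes tested (edgeR, quasi-likelihood test, threshold of 0.05 on the adjusted p). From P5 to P10, 68 of 76 rose and 2 fell, with a median log2 change of 0.55, beside 30.8% of all genes tested that rose and 30.6% that fell. The median over all genes was -0.02. The summed level of the 80 members averaged 8477 ± 559 CPM in the P5 libraries (SD, n = 5) and 8961 ± 755 in those of P7. It reached 11935 ± 208 CPM at P10 and 11476 ± 583 at P15 (n = 3 each). In batch C it came to 10631 ± 304 CPM for P21 and 11044 ± 274 for P28 (n = 3 each). As a share of scaled counts this was 0.848% at P5 and 1.19% at P10. The lowest P10 library (11813 CPM) lay above the highest of P5 and P7 (9646). As a ratio of means, P10 over P5, the summed level of complex IV was 1.52-fold higher (1407 ± 77.2 CPM at P5 and 2139 ± 27.7 at P10), that of complex III 1.47-fold, that of complex I 1.41-fold and that of complex V 1.35-fold (3732 ± 285 and 5039 ± 121 CPM). The difference between complexes was not tested. At P5 the batch B libraries averaged 8995 CPM and those of batch A 8131, and 7 of 76 members differed between these batches, 6 of them higher in B. The share of all genes that differed between the batches is not given here, so this count cannot be set against it.

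**Figure D1:**
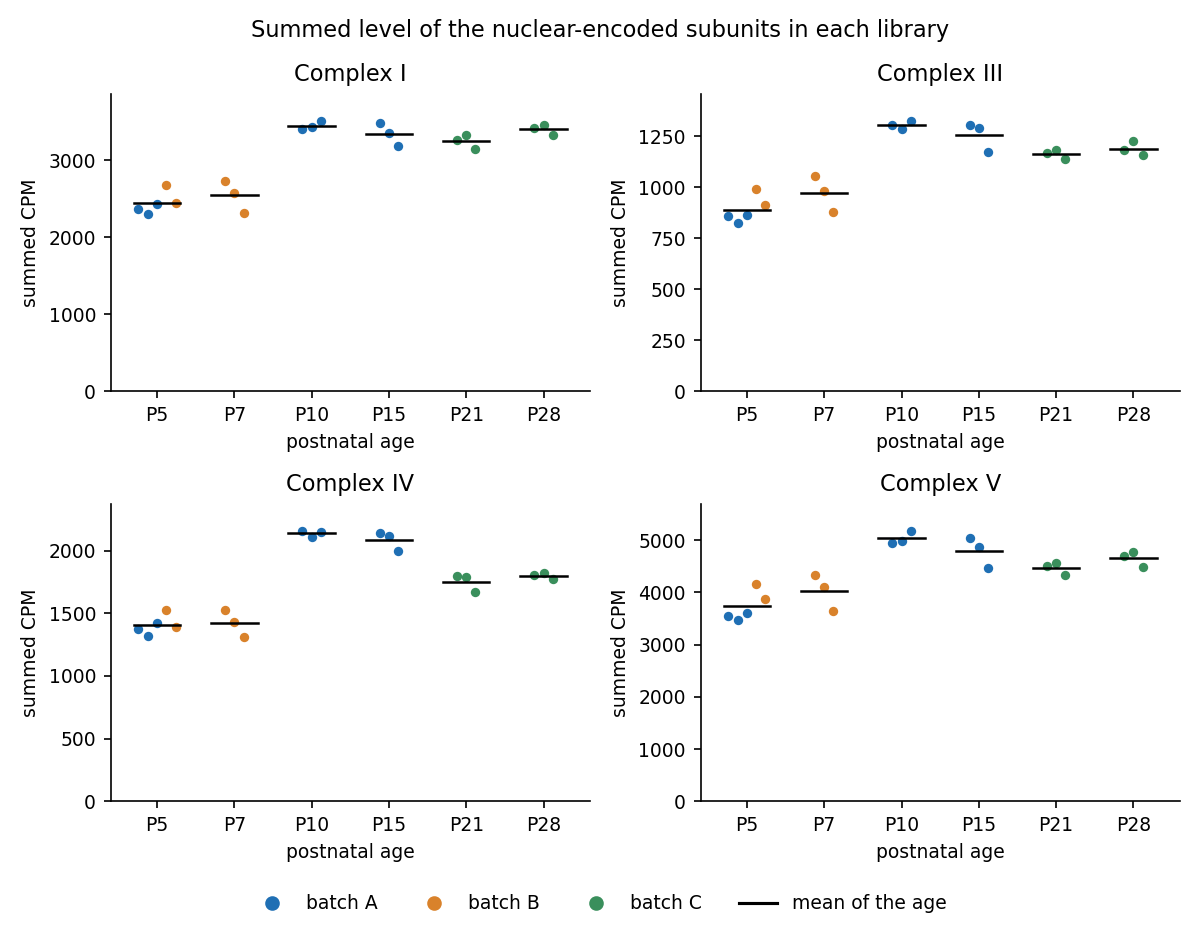
Summed CPM of the members of complexes I, III, IV and V (vertical axis, from 0) in each of the 20 libraries by postnatal age, coloured by batch, with the mean of each age as a bar. In all 4 panels the P10 libraries lie above every P5 and P7 library, and in complex IV the P21 and P28 libraries (1670 to 1824 CPM) lie below those of P10 and P15 (1998 to 2158 CPM).

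Between P5 and P7 little moved: 1 of 76 members rose and 1 fell (median log2 change -0.02), beside 6.15% and 4.89% of all genes. Cox7a2l, which helps join complexes III and IV into supercomplexes, rose by 0.27 on the log2 scale (SE 0.06, adjusted p = 0.00567 by edgeR). Atp5mpl, a small ATP synthase membrane protein chosen here after its values were seen, changed by -0.28 (adjusted p = 0.0248). This step depends on the treatment of P5 and on the scaling. With the batch B libraries of P5 left out, 18 members rose and 5 fell, beside 2537 higher and 2036 lower of 15253 genes tested. With scaling by total counts no member rose and 22 fell, beside 545 higher and 2490 lower of 15373 genes. Without these changes all genes split into 946 higher and 752 lower. From P7 to P10, 69 of 76 members rose and 1 (Cox6b2) fell, with a median of 0.56, beside 22.5% and 20.3% of all genes. Cox6b2 passed the filter on low counts mainly through P5 and P7 libraries, where it was high, so its call is not support for a fall. The call of Cox6b2, a testis isoform near the floor (log2 change -2.07, adjusted p = 0.047 by edgeR), was lost with DESeq2 (adjusted p = 0.0658), with limma-voom (0.0576), with no filter on low counts (0.0509 by edgeR) and with any 1 of 14 of the 20 libraries left out (0.0503 to 0.177 by edgeR, the highest without replicate 1 of P5 in batch B). P7 is in batch B and P10 in batch A, so this step is joined only through the P5 libraries, which are in both.

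No member passed from P10 to P15 (median log2 change -0.05, 8 of 76 at an unadjusted p under 0.05 in edgeR, and 0 by DESeq2 and by limma-voom), beside 1.84% of all genes that rose and 2.52% that fell. From P15 to P21, 16 members fell and 2 rose (median -0.08), beside 14.8% and 14% of all genes. P21 and P28 are the only ages of batch C, so for this step age and batch cannot be told apart. Within batch C, from P21 to P28, no member passed (median 0.05, 5 of 76 at an unadjusted p under 0.05 in edgeR, and 0 by DESeq2 and by limma-voom), beside 0.065% and 0.189% of all genes. The age of the highest mean level was P10 for 44 of the 76 members, P28 for 20, P15 for 8 and P21 for 2, with 1 each for P5 and P7. Over all ages, 71 of 76 members changed, beside 79.7% of all genes, so a change at some age was common to most genes.

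**Figure D2:**
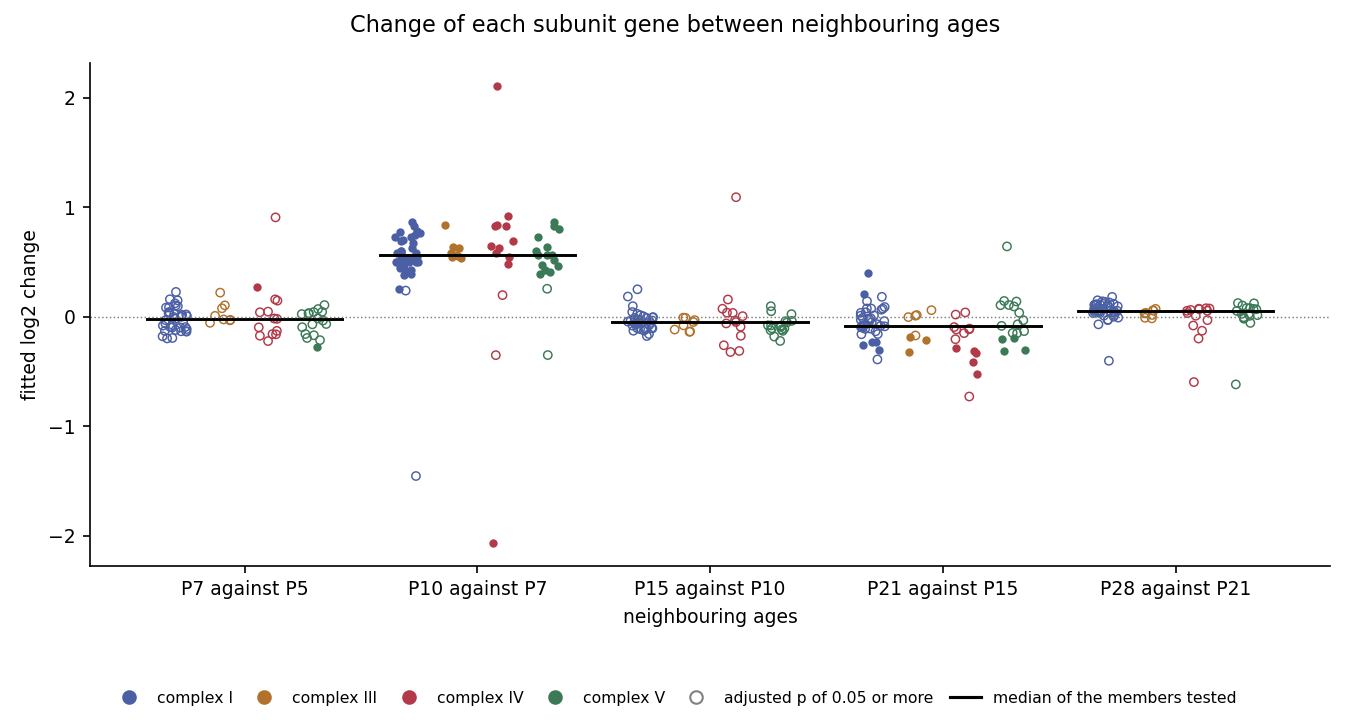
Fitted log2 change of each of the 76 tested members (points, coloured by complex) between neighbouring ages, filled where the adjusted p was under 0.05 and open otherwise, with the median of the members as a bar. The points of all 4 complexes lie above 0 at the step from P7 to P10 (median 0.56) apart from the low-level genes Ndufa4l2, Cox6b2, Cox7a1 and Atp5l, and lie around 0 at the other steps.

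Over the longest span inside batch A, from P5 to P15, 67 of 76 members rose and none fell (median log2 change 0.48), beside 31.6% of all genes that rose and 31.8% that fell. All 8 tested members of complex III passed, as did 33 of 37 in complex I, 12 of 14 in complex IV and 14 of 17 in complex V, with medians of 0.55, 0.49, 0.50 and 0.43. The 9 that did not pass were Ndufa4l2, Ndufa7, Ndufb4, Ndufc2, Cox6b2, Cox7a1, Atp5e, Atp5g2 and Atp5l. Every P15 library lay above every one of the 5 P5 libraries for 59 of 76 members, beside 29.0% of all genes tested. Against the 3 P5 libraries of batch A alone this held for 68 members, beside 33.8% of all genes. From P5 to P28, 63 rose and 1 fell (median 0.44), beside 35.2% and 36.4% of all genes, with P28 in batch C alone. Both comparisons and the one with P10 share the P5 libraries. Of the members that rose by P15, 61 were also higher at P28, and 6 no longer passed: Ndufb6, Cox5a, Cox6a1, Cox6a2, Cox6b1 and Atp5mpl, of which 4 are complex IV genes. Scaling by total counts moved the median of all genes from P5 to P15 by -0.14 and their split from 4856 higher and 4891 lower to 3836 and 5961. With total counts 62 members rose and 2 fell, with a median of 0.36. From P5 to P10 it moved the split of all genes from 4733 higher and 4709 lower to 3586 and 5956, with 66 members that rose and 2 that fell.

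Complex I holds 7 nuclear-encoded core subunits, among which are the carriers of the flavin and of the iron-sulfur clusters, and many accessory subunits. All 7 core genes rose from P5 to P15, with log2 changes from 0.44 to 1.05, and all 7 were higher at P28. Ndufs7, whose product holds the last iron-sulfur cluster before ubiquinone, was measured at 45.6, 42.2 and 45.1 CPM in batch A and 49.4 and 42.6 CPM in batch B at P5. It reached 79.3, 81.1 and 81.5 CPM at P10 and 95.8, 92.9 and 86.1 CPM at P15. Every P10 and P15 library lay above every P5 library, with a 2.07-fold rise by P15 and a fitted log2 change of 1.05 (SE 0.07, adjusted p = 1.98e-12) by edgeR. At later ages Ndufs7 gave 72.9, 82.4 and 79.5 CPM at P21 and 89.8, 88.7 and 87.9 CPM at P28. The fall from P15 to P21 (log2 change -0.23, adjusted p = 0.0121 by edgeR) did not pass without replicate 1 of P15 (-0.19, adjusted p = 0.0622) or without replicate 1 of P21 (-0.18, adjusted p = 0.0755).

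Ndufs3, a core subunit of the peripheral arm, gave 61.1, 55.8 and 59.1 CPM in batch A and 63.8 and 67.9 CPM in batch B at P5. Its later libraries held a plateau, with 96.5, 108 and 109 CPM at P10 and 105, 105 and 101 CPM at P15. Batch C gave 108, 109.5 and 96.3 CPM at P21 and 100.2, 109 and 104 CPM at P28. None of these overlapped P5, and the log2 change of 0.82 (SE 0.07, adjusted p = 1.55e-10) by edgeR for P15 stood beside one of 0.83 for P28. Ndufs1, the largest core subunit, was chosen after its values were seen because it was higher at P21 than at P15: 183, 177 and 158 CPM at P15, then 200.1, 205 and 193 CPM at P21 and 206, 209.5 and 196 CPM at P28. Its change from P15 to P21 was 0.21 (adjusted p = 0.0221 by edgeR), the libraries did not overlap, and its P5 level differed between batches (log2 B over A 0.38). The other member higher at P21 than at P15 was Ndufb4 (log2 change 0.40), an accessory subunit at 6.61 ± 0.722 CPM at P5.

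Of the 30 accessory genes of complex I, 26 rose from P5 to P15 and none fell, with a median log2 change of 0.45. Ndufa1, a small membrane subunit encoded on the X chromosome, rose most: 26.5, 28.1 and 29.2 CPM in batch A and 32.6 and 33.3 CPM in batch B at P5 became 54.7, 55.5 and 55.5 CPM at P10 and 50.9, 56.9 and 54.0 CPM at P15. No library of P10 or later overlapped P5, with a log2 change of 0.95 at P15 and 0.80 at P28. Ndufa7 stood apart from these at P15 and P28. It was measured at 55.4, 50.5 and 57.8 CPM in batch A and 55.0 and 54.2 CPM in batch B at P5, 55.4, 53.8 and 56.5 CPM at P15 and 53.5, 59.5 and 55.5 CPM at P28. Those libraries overlapped, with log2 changes of 0.02 (adjusted p = 0.808) and 0.04 (adjusted p = 0.537) by edgeR. Its P10 libraries (60.3, 60.2 and 58.5 CPM) lay above every P5 library and above those of P7 (50.9, 51.8 and 48.1 CPM). The rise from P7 to P10 passed but was lost under several settings, such as no filter on low counts (0.25, adjusted p = 0.0532 by edgeR). The change from P5 to P10 did not pass. In summed level complex I was 3451 ± 60.6 CPM at P10 and 3405 ± 67.3 at P28, against 2450 ± 143 at P5.

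Complex III passes electrons from ubiquinol to cytochrome c, and all 8 of its genes were higher at P10, P15 and P28 than at P5. The core proteins Uqcrc1 and Uqcrc2 rose by 0.67 and 0.46 by P15. For Uqcrc1 the libraries gave 191, 177 and 184 CPM in batch A and 208 and 203 CPM in batch B at P5. They gave 311, 286 and 290.4 CPM at P10 and 299, 306 and 277 CPM at P15, all above P5. They then lay between the earlier groups, at 247, 255 and 256 CPM at P21 and 249, 263 and 255 CPM at P28, and the fall from P15 to P21 passed, with a log2 change of -0.22 (SE 0.06, adjusted p = 0.00719) by edgeR. Uqcr11, a small subunit and the complex III gene with the highest change, went from 77.9, 67.1 and 70.2 CPM in batch A and 75.1 and 67.6 CPM in batch B at P5 to 128, 129.8 and 122 CPM at P15. The groups did not overlap, with a log2 change of 0.82 (SE 0.06, adjusted p = 6.41e-11) by edgeR. It stood at 103, 103 and 99.0 CPM at P21 and 105, 105 and 101 CPM at P28, below every P15 library and above every P5 library. Uqcrb, which lies beside cytochrome b, rose by 0.64 and was 0.74 higher at P28. Uqcrq had a change of 0.45 at P15 and 0.27 at P28, the latter lost under total counts (0.14, adjusted p = 0.0536 by edgeR). Uqcrfs1, the Rieske iron-sulfur protein, rose by 0.41 at P15. At P28 its change of 0.21 (adjusted p = 0.0117 by edgeR) did not pass under 4 other settings (0.09 to 0.15) or without replicate 1 of P5 in batch A (0.17, adjusted p = 0.0628 by edgeR).

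Complex IV reduces oxygen to water. Its 10 nuclear subunits of the ubiquitous form (Cox4i1, Cox5a, Cox5b, Cox6a1, Cox6b1, Cox6c, Cox7a2, Cox7b, Cox7c and Cox8a) all rose from P5 to P15, with log2 changes from 0.32 to 1.14. From P15 to P21, 5 of the 10 fell, and 7 were still higher at P28 than at P5. Cox8a, the smallest subunit, had the highest change of all members above 5 CPM. It was measured at 109, 105 and 121 CPM in batch A and 127 and 113 CPM in batch B at P5. It reached 243, 228 and 232 CPM at P10 and 241, 243 and 256 CPM at P15. Every library of P10 and P15 was above 228 CPM and every P5 library below 127, a 2.21-fold rise by P15 and a fitted log2 change of 1.14 (SE 0.07, adjusted p = 3.43e-13) by edgeR. The P21 libraries (190.2, 176 and 190.0 CPM) and P28 libraries (207, 177 and 194 CPM) lay between them. The fall from P15 to P21 was -0.41 (adjusted p = 5.95e-05 by edgeR).

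Cox6a1, a small membrane subunit, had the largest fall of the 10 from P15 to P21. It gave 189, 178 and 190.4 CPM in batch A and 183 and 172 CPM in batch B at P5 and 170.4, 166 and 161 CPM at P7. It then gave 275, 265 and 264 CPM at P10 and 260.4, 255 and 269.8 CPM at P15. All 6 of these lay above all earlier libraries. At P21 it had 181, 186 and 178 CPM and at P28 188, 195 and 188 CPM, back within the P5 range or just above it. The rise by P15 was 0.49 (SE 0.05, adjusted p = 3.16e-09), the fall to P21 was -0.53 (SE 0.05, adjusted p = 2.90e-08) and the change from P5 to P28 was 0.03 (adjusted p = 0.536), all by edgeR.

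Cox6b1, on the intermembrane space side, had a lower P15 rise of 0.32 and a P21 fall of -0.28, and its P28 libraries (148, 155 and 141 CPM) overlapped P5. Cox4i1, the regulatory subunit that assembles early, went from 265, 253 and 267 CPM in batch A and 283 and 249 CPM in batch B at P5 to 415, 408 and 388 CPM at P15. These groups were far apart, with a log2 change of 0.63 (adjusted p = 4.20e-10 by edgeR). Its P28 libraries (339, 341 and 336 CPM) stayed above all of P5, with a change of 0.37. Cox7b rose by 0.47 and was 0.35 higher at P28. Cox6c, a small membrane subunit, did not follow the fall: 110.3, 106 and 108 CPM in batch A and 129.9 and 118 CPM in batch B at P5 became 199, 204 and 191 CPM at P15 and 200.1, 216 and 198 CPM at P28. Its P15 and P28 libraries overlapped each other and none of them overlapped P5, with log2 changes of 0.87 at P15 and 0.92 at P28. In summed level complex IV fell to 1752 ± 70.7 CPM at P21, or 0.175% of counts against 0.209% at P15, while complex I kept 0.325% against 0.335%. Whether the complexes differ in this step was not tested, and batch C and age cannot be told apart in it.

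**Figure D3:**
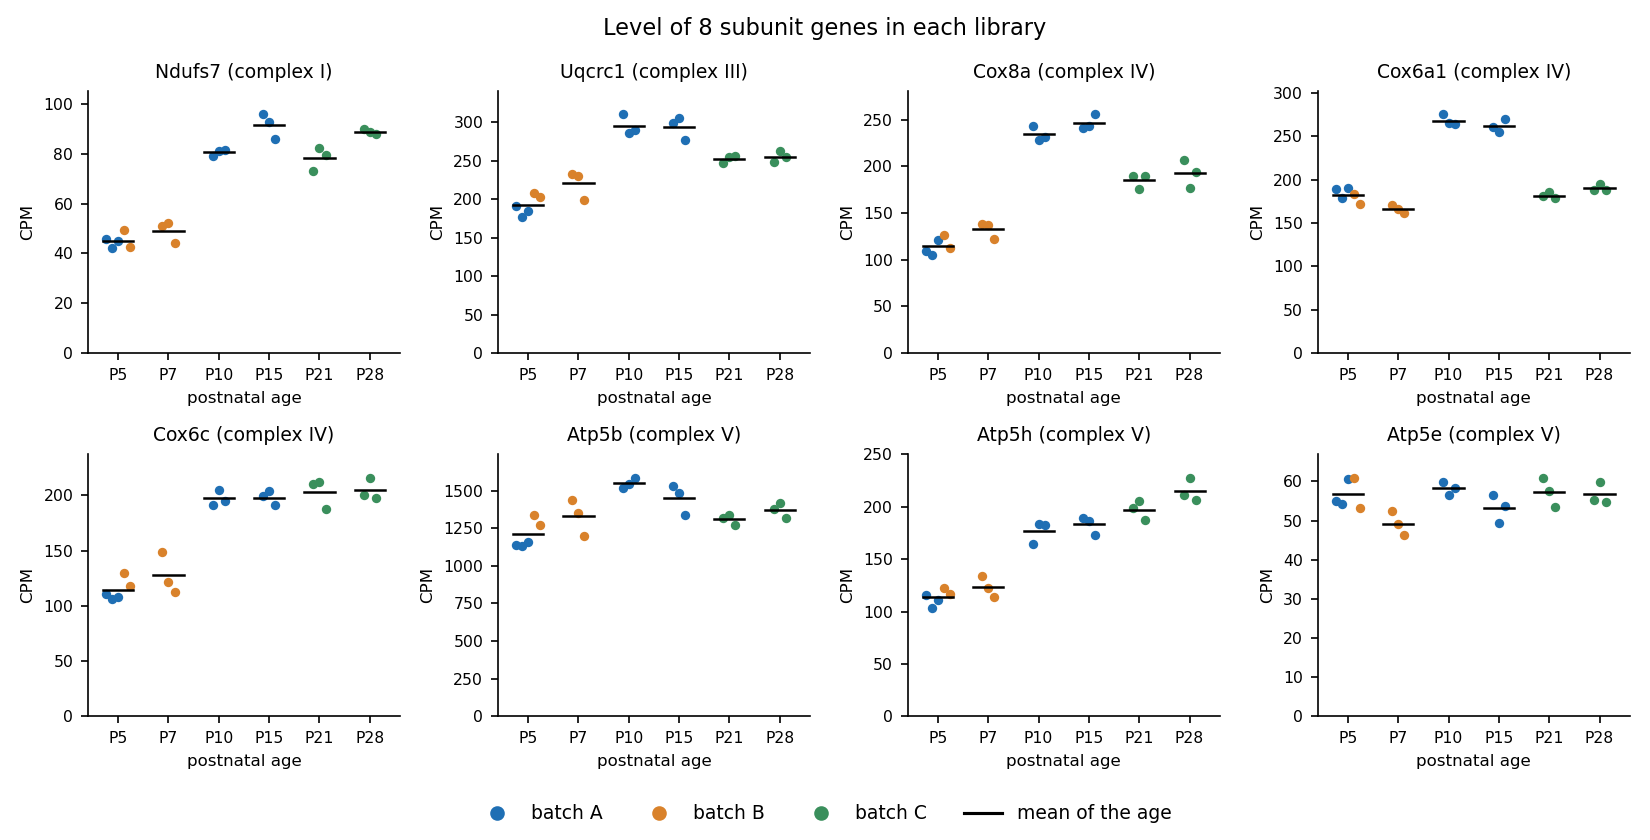
CPM (vertical axes, from 0) of Ndufs7, Uqcrc1, Cox8a, Cox6a1, Cox6c, Atp5b, Atp5h and Atp5e in each library by postnatal age, coloured by batch, with the mean of each age as a bar. Cox6a1 is high only at P10 and P15 (255 to 275 CPM), and Cox6c and Atp5h stay high to P28. The P10 libraries of Atp5e (56.6 to 59.8 CPM) lie above those of P7 (46.3 to 52.3 CPM) but inside the P5 range.

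Complex V has a catalytic head with a central stalk, a peripheral stalk and a membrane part with the ring of subunit c. In the head and central stalk 4 of 5 genes rose from P5 to P15. Atp5b, the catalytic beta subunit and the member with the highest level, gave 1139, 1134 and 1159.9 CPM in batch A and 1340.4 and 1268 CPM in batch B at P5 and 1515, 1546 and 1586 CPM at P10. It gave 1531, 1486 and 1341 CPM at P15 and 1381, 1415 and 1319 CPM at P28. The P10 libraries lay above all of P5. Replicate 3 of P15 lay only just above the highest P5 library, and the P28 range overlapped P5. The log2 change was 0.34 at P15 (SE 0.06, adjusted p = 3.48e-05) and 0.26 at P28 (adjusted p = 0.000618), both by edgeR. Atp5e, the epsilon subunit of the central stalk, gave 54.9, 54.3 and 60.5 CPM in batch A and 61.0 and 53.2 CPM in batch B at P5. It gave 56.6, 49.3 and 53.8 CPM at P15 and 55.3, 59.9 and 54.9 CPM at P28, all inside or near the P5 range, with a change of -0.09 (SE 0.07, adjusted p = 0.289 by edgeR) at P15. Its P7 libraries (52.3, 49.1 and 46.3 CPM) lay below those of P10 (59.8, 56.6 and 58.2 CPM). That change of 0.26 did not pass (adjusted p = 0.0535 by edgeR), but it passed under some other settings, such as no batch term (0.24, adjusted p = 0.00739 by edgeR).

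The 4 peripheral stalk genes (Atp5f1, Atp5h, Atp5j and Atp5o) all rose, with log2 changes from 0.21 to 0.82 at P15. Atp5h, subunit d, had its highest libraries at P28: 116, 104 and 111 CPM in batch A and 123 and 117 CPM in batch B at P5 became 165, 183 and 183 CPM at P10 and 189, 186 and 173 CPM at P15. It was at 198, 206 and 187 CPM at P21 and 211, 228 and 206 CPM at P28. The P28 libraries lay above every library of P15 and earlier, with log2 changes from P5 of 0.73 at P15 and 0.96 at P28 (SE 0.07, adjusted p = 2.35e-12 by edgeR). Atp5j, coupling factor 6, rose by 0.82 and was 0.88 higher at P28, with no overlap with P5. Of the 5 other membrane genes, 4 rose by P15, among them Atp5md, a small membrane subunit also called DAPIT (0.62). Atp5l, subunit g, was listed at only 1.81 ± 0.258 CPM at P5 and 1.65 ± 0.0654 at P15 and did not pass. Its transcript has 9 pseudogene transcripts in the annotation that match it at 95% identity or more over at least 100 bases, the most of any member, and the effect of shared reads on its level was not tested.

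Where a subunit has several isoform genes, the ubiquitous isoform dominated. In 7 of the 12 isoform pairs the minor gene had under 10 counts in at least 1 library of every age, and these pairs were not tested. Cox4i2, an isoform linked to low oxygen, ran from 0 to 0.301 CPM, Cox7b2 from 0 to 0.321 CPM and Cox8b from 0 to 0.210 CPM. Cox8c had 0 counts in all 20 libraries, which allows up to 3 counts, or 0.189 CPM by the unscaled total of the shallowest. These 4 did not pass the filter. The muscle isoforms Cox6a2 and Cox7a1 and the testis isoform Cox6b2 passed it but stayed near the floor. Cox6a2 had over 10 counts only in P10 and P15 libraries (12 to 17), and Cox6b2 mostly in P5 and P7 libraries (15 to 31). Each passed the filter through the ages where it was high, so their calls are not support for a change. Cox6a2 was 0.143 to 0.494 CPM at P5 and 0.472 to 0.722 at P15, and its change of 1.62 (adjusted p = 0.0152 by edgeR) did not pass without replicate 2 of P15 (1.47, adjusted p = 0.0536 by edgeR). It made up 0.135% of the Cox6a1 and Cox6a2 levels at P5 and 0.232% at P15. Cox7a1 ran from 0.148 to 0.722 CPM over all libraries and did not pass in any comparison. Cox6b2 was 0.405 to 1.04 CPM at P5 and 0.0603 to 0.301 at P10 (log2 change -1.91, adjusted p = 0.0111 by edgeR). That call was lost without replicate 1 of P5 in batch A (-1.64, adjusted p = 0.0523 by edgeR) or replicate 1 of P10 (-1.49, adjusted p = 0.0594 by edgeR).

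For the other 5 pairs the log2 ratio of counts within a library was compared by exact two-sided permutation tests over libraries, adjusted over the 5 pairs of a comparison. With 3 against 5 libraries the smallest possible p is 0.0179, or 0.0298 after adjustment in these comparisons. The tests take the 5 P5 libraries as separate, although those of batch B carry replicate numbers that batch A uses too. With the P5 libraries of batch A alone, 3 against 3 libraries cannot pass. Cox7a2 and Cox7a2l shifted toward Cox7a2l: its share of the pair was 34.8% at P5, 39.5% at P15 and 39.0% at P28. The log2 ratio of Cox7a2 over Cox7a2l fell from 0.90 ± 0.093 (SD, n = 5) to 0.61 ± 0.101 (n = 3) at P15, with exact permutation adjusted p = 0.0298 and no overlap. Cox7a2 itself had 90.3, 86.6 and 100.4 CPM in batch A and 110.4 and 101 CPM in batch B at P5 and 122, 125 and 107 CPM at P15, ranges that overlap. Cox7a2l had 52.5, 48.1 and 49.7 CPM in batch A and 56.3 and 55.0 CPM in batch B at P5 and 68.1, 67.1 and 65.9 CPM at P7. It had 76.8, 78.6 and 76.1 CPM at P15. No P7 or P15 library overlapped P5, and it was the one member that rose from P5 to P7. That call was lost without replicate 3 of P5 in batch B (0.25, adjusted p = 0.0579 by edgeR) and under total counts (0.16, adjusted p = 0.0655 by edgeR). The ratio's call at P15 was lost without replicate 2 of P5 in batch A (change -0.30, exact permutation adjusted p = 0.0952) and without any 1 of the P15 libraries, where the test can no longer pass. At P28 the ratio changed by -0.26 (exact permutation adjusted p = 0.0298), and without replicate 3 of P5 in batch B the change was -0.26 with exact permutation adjusted p = 0.0952.

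Atp5g1, Atp5g2 and Atp5g3 encode the same mature subunit c with different import sequences. Atp5g3 was the most abundant of them (267 ± 13.0 CPM at P5 and 349.9 ± 19.6 at P15), then Atp5g1 (118 ± 7.83 and 160.1 ± 8.95), then Atp5g2 (20.7 ± 1.52 and 22.0 ± 0.364). The Atp5g1 over Atp5g2 log2 ratio went from 2.51 ± 0.118 at P5 to 2.86 ± 0.0688 at P15 (exact permutation adjusted p = 0.0298, n = 5 and 3). It stood at 2.34 ± 0.137 at P28, overlapping P5 (exact permutation adjusted p = 0.156). The Atp5g2 over Atp5g3 ratio moved by -0.29 at P15 (exact permutation adjusted p = 0.0298). Atp5g1 over Atp5g3 differed by 0.05 at P15 (exact permutation adjusted p = 0.161) and by -0.17 at P28 (exact permutation adjusted p = 0.0298). Atp5g1 and Atp5g2 each have pseudogene transcripts that match them closely (1 and 2), which no test here separated. Without replicate 2 of P5 in batch A the P15 changes were 0.36 and -0.30 and the P28 change -0.16 (exact permutation adjusted p = 0.0714 for each).

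Ndufa4, now regarded as a complex IV subunit although its symbol places it in complex I, was the member of its name group with the highest level per length. It gave 165, 152 and 173 CPM in batch A and 199.7 and 175 CPM in batch B at P5 and 230.2, 218 and 207 CPM at P15, with no overlap and a log2 change of 0.42. Its paralog Ndufa4l2, known from pericytes and from low oxygen, gave 1.61, 0.636 and 1.16 CPM in batch A and 0.621 and 0.888 CPM in batch B at P5. It gave 0.482, 0.723 and 0.241 CPM at P10, 0.314, 0.516 and 0.895 CPM at P15 and 0.494, 0.367 and 0.116 CPM at P28, all low. Only the P28 libraries lay below all of P5 in these groups. Ndufa4l2 was the only member that fell from P5 to P28, with a log2 change of -1.77 (SE 0.51, adjusted p = 0.00349) by edgeR. The Ndufa4 over Ndufa4l2 log2 ratio rose from 7.51 ± 0.622 at P5 to 9.48 ± 0.946 at P28 (exact permutation adjusted p = 0.0298, n = 5 and 3). At P15 it overlapped P5 (exact permutation adjusted p = 0.134). Only at P5 and P7, its highest ages, did Ndufa4l2 reach 10 counts in every library. The pair was tested through those ages, so the p is not support for a fall. Without replicate 2 of P5 in batch A, or replicate 3 of P5 in batch B, the ratio's P28 change of 2.06 or 1.99 had exact permutation adjusted p = 0.0714. The 8 markers of mural cells, which include pericytes, summed to 52.8 to 87.1 CPM at P5 and 16.1 to 19.2 at P28. Of these, 7 fell and none rose, and none averaged 0 (Kcnj8 was 1.39 CPM at P5 and 0.0752 at P28). Their part in the Ndufa4l2 values was not tested. From P21 to P28 no pair passed (exact permutation adjusted p = 0.8 in all 5, where 3 against 3 libraries cannot go below 0.1).

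**Figure D4:**
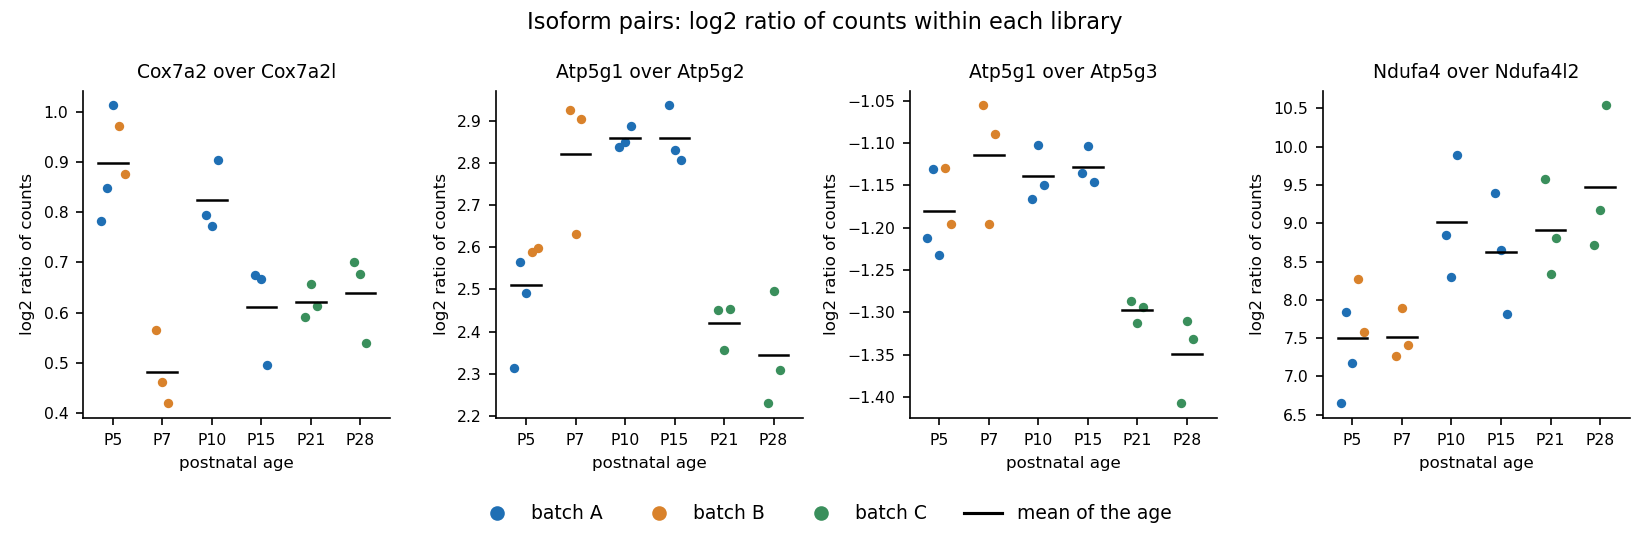
Log2 ratio of counts (vertical axes) within each library for 4 isoform pairs by postnatal age, coloured by batch, with the mean of each age as a bar. Cox7a2 over Cox7a2l is lower in every library after P5 except that P10 overlaps it, Atp5g1 over Atp5g2 is raised from P7 to P15, and Ndufa4 over Ndufa4l2 rises with wide scatter.

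Levels differed far more between subunits than between ages. Per kilobase of transcript and over the ages, Atp5b led complex V at 715 CPM per kb, Ndufa4 complex I at 452, Cox4i1 complex IV at 446 and Uqcrq, a small subunit, complex III at 258. The median subunit stood at 87.4 CPM per kb in complex I, 164 in complex III, 182 in complex IV and 203 in complex V. The middle 50% of complex I subunits fell between 75.4 and 108 CPM per kb. At the low end were Ndufa4l2 (0.658), Cox6a2 (0.613) and Atp5l (3.42), while the lowest subunit of complex III, Uqcrfs1, stood at 103. In CPM, Atp5b alone made up 30.8% of the complex V sum.

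**Figure D5:**
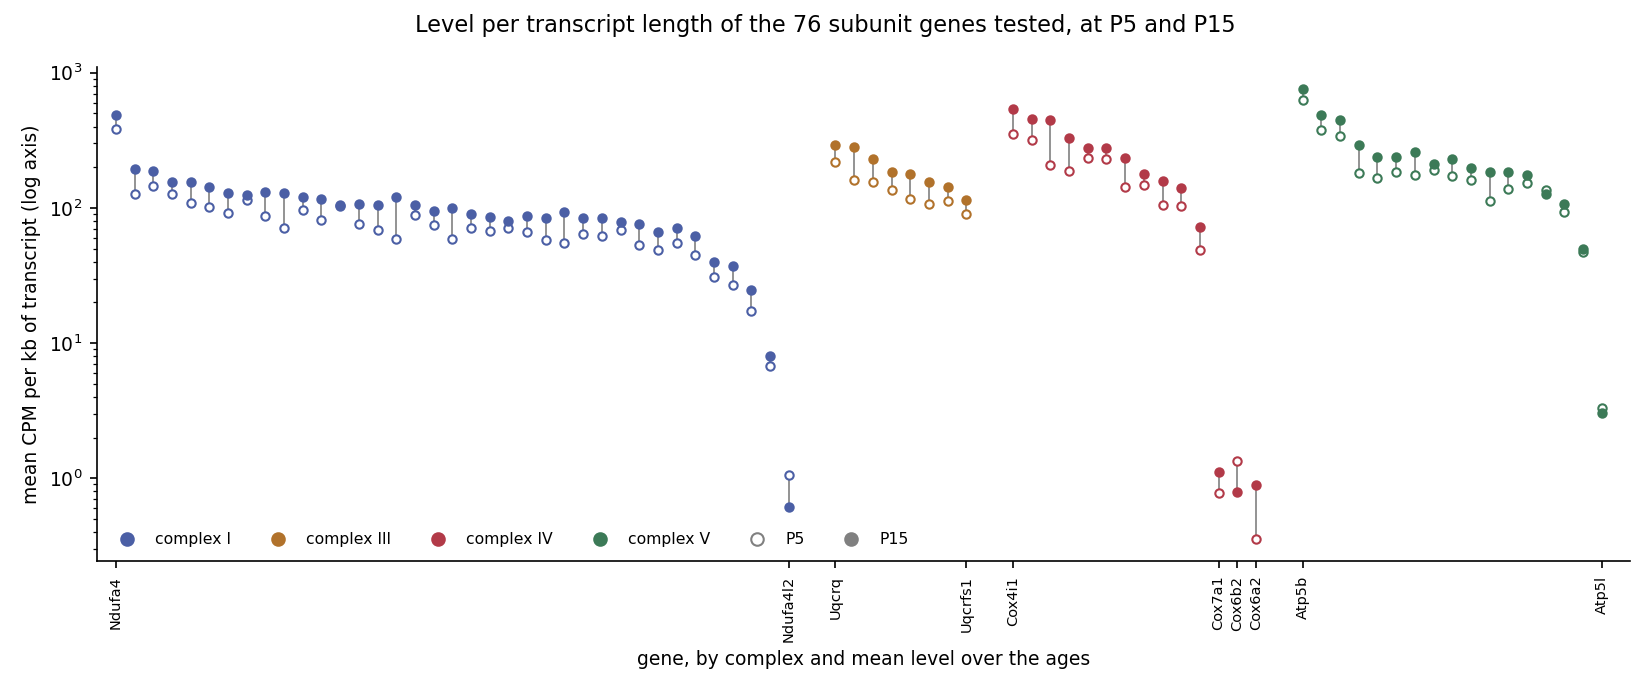
Mean CPM per kilobase of transcript (log axis) of the 76 tested members at P5 (open) and P15 (filled), by complex and ordered by their mean over the ages, with the genes at the ends of each order labelled. The filled point lies above the open one for nearly all genes, and the isoforms Ndufa4l2, Cox6a2, Cox6b2 and Cox7a1 and the gene Atp5l lie far below the rest.

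Complex II, cytochrome c and the carriers of the inner and outer membrane lie outside the naming rule, and 11 of their 12 tested genes rose from P5 to P15, beside 31.6% of all genes tested. In complex II, Sdha, the flavoprotein that oxidizes succinate, rose by 0.74 from P5 to P15, and Sdhb, Sdhc and Sdhd by 0.26, 0.39 and 0.27. Cycs (cytochrome c) rose by 0.47 and Cyc1 (cytochrome c1, a catalytic subunit of complex III outside the naming rule) by 0.34. All 6 tested genes of this list thus rose, and the testis gene Cyct was near 0. At P28 Sdha was 0.94 higher than at P5, whereas Sdhd differed by -0.02. Of the carriers that move ATP, ADP and phosphate, 5 of 6 tested rose by P15: Slc25a5 by 0.64, Vdac1 by 0.62, Slc25a3 by 0.61, Vdac2 by 0.42 and Slc25a4 by 0.30. Vdac3 changed by -0.04 (adjusted p = 0.637 by edgeR), and Slc25a31, a testis carrier, was not tested. From P15 to P21 Slc25a3, Slc25a4 and Slc25a5 fell, by -0.15, -0.31 and -0.17.

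Among 16 regulators of mitochondrial biogenesis, 6 rose from P5 to P15 and 2 fell, beside 31.6% and 31.8% of all genes tested, so the count of those that rose is near the background. The estrogen-related receptors, nuclear receptors that bind promoters of these genes, all rose: Esrra by 0.91 (21.5 to 41.6 CPM), Esrrg by 1.13 (6.36 to 13.4) and Esrrb by 1.47 (1.56 to 3.38). Their coactivator Ppargc1a rose by 0.71 (25.8 to 39.9 CPM) and Tfam, which packages and transcribes mitochondrial DNA, by 0.42. Yy1 rose by 0.17. The coactivator Pprc1 fell by 0.36 and Hif1a, the low-oxygen factor, fell by 0.40. Nrf1 changed by -0.09 (adjusted p = 0.323 by edgeR) and Gabpa by 0.13 (adjusted p = 0.127 by edgeR), neither past the threshold, and Gabpb1 (0.18), Ppargc1b (0.05), Tfb1m (-0.20), Tfb2m (-0.10), Polrmt (0.03) and Twnk (0.07) did not pass either.

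RefSeq promoter windows of 300 bases (250 before and 50 after the start, GRCm38.p6) were matched for 64 of 80 members, with 69 windows. The NRF1 letters stood in 27.5% of the members' windows, beside 6.25% of all 32851 windows and 11.9% of those of tested genes. The shares were 21.7%, 8.86% and 15.2% for the GABP letters, 13.0%, 2.75% and 3.84% for the YY1 letters AAGATGGC, and 1.45%, 0.423% and 0.303% for the estrogen-related receptor letters TCAAGGTCA. All were searched on both strands, and no motif contains another. Of the 64 members, 29 held none of the 4 and 5 held both NRF1 and GABP letters. The members with and without NRF1 letters had median log2 changes from P5 to P15 of 0.44 (18 tested) and 0.47 (44), and those with and without GABP letters 0.58 (15) and 0.44 (47). Those ranges overlapped widely, and no difference between them was tested.

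The members share short transcripts, with a median of 687 bases and a range from 315 to 2590. Other genes of the same length had medians near 0: under 700 bases, the 510 other genes had a median log2 change from P5 to P15 of -0.07 and the 38 members one of 0.46. From 700 to 1400 bases the values were 0.05 and 0.54, and from 1400 to 2800 bases 0.01 and 0.49. With a smooth trend on transcript length removed in each library, 66 members rose from P5 to P15 and none fell. Over all 15373 genes tested, 4965 were higher and 4779 lower under that setting. All 80 members are protein-coding, on 19 chromosomes. Exons of 30 overlap those of another gene (27 on the opposite strand, 5 on the same), and 22 have at least 1 pseudogene transcript that matches closely, so that their counts are less certain.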

How the data were processed

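Ribosome-bound RNA was sequenced from 20 libraries of 6 ages. The authors deposited a table of raw counts per gene for 32245 genes; per the labels' protocols the libraries were made with a stranded poly-A kit. Per the submitters' processing notes, STAR 2.7.5b, featureCounts and SAMtools 1.10 were used with mm10. The annotation, the strand setting and the handling of reads with several matches are not stated in the labels or notes used. Every column of the table was used (0 left out).

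The deposited counts were analysed with R 4.3.3 and edgeR 4.0.16. Genes were kept by filterByExpr with age as the group (15373 genes), scaled by TMM and fitted by quasi-likelihood with a mean for each age and a term for batch B against A (13 residual degrees of freedom, biological coefficient of variation 8.46%). Batch B and A meet only at P5, so the fit sets P10 and P15 against the batch A part of P5, and P7 against its batch B part. Batch C holds P21 and P28 alone. p-values were adjusted by Benjamini-Hochberg over all genes tested, with a threshold of 0.05. Isoform ratios used counts plus 0.5 and exact permutation tests. Intervals and floors (3 counts) cover counting error only.

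Libraries of an age differed by a chi-square of 3.7 to 40.7 per degree of freedom, so none was counted as a repeat of another. The P5 libraries of batch B carry the replicate numbers 1 and 3, which batch A uses too. Whether they share animals with batch A is not stated, and the chi-square cannot decide it. Of 55 pairs of same-numbered libraries of different ages, 7 had correlated deviations over 0.1 (range -0.256 to 0.248), so the numbers were not taken to pair the libraries. The fit of P15 against P5 was tested on simulated data with 15041 genes. It recovered 60% of the 100 simulated with a 1.5-fold change and 82% of the 100 with a 2-fold change, and 4.7% of its calls were wrong. No other gene was changed in the simulation, and no batch difference was put in. In the real comparison 9747 of 15373 genes passed, so the simulated shares need not hold for it.

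The members and the gene lists were chosen with earlier results of these data known. Genes named with values were, in each complex, the 3 highest and 2 lowest changes from P5 to P15, the highest level, both genes of each isoform pair, members that fell and members not tested. From the pathway lists they were every gene of complex II with cytochrome c, the carriers and the regulators, and otherwise the 2 highest and 2 lowest of those that passed. Ndufs1, Ndufb4, Atp5mpl and others outside this rule were chosen after their values were seen, as were P10 against P5 and the exon union length among the alternatives. Alternatives covered DESeq2 size factors, total counts, no filter, a stricter filter (50 counts in 3 libraries), DESeq2 1.42.0, limma-voom (limma 3.58.1), no batch term, a replicate block, other uses of the P5 libraries, a transcript length trend and leaving out each library. Transcript lengths came from the GENCODE vM21 annotation and promoters from RefSeq. One member that the naming rule selects is not reported here by name.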

Additional observations from a re-analysis of the deposited data

Results flagged for a closer look

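In the 5 P5 libraries, 42 values were checked for a single library far from the others, and 2 met the criterion (a gap over 0.71 of the range). Chance flags about 1 in 20 groups. Cox6a2 stood at 0.494 CPM in replicate 3 of batch B, where the other 4 libraries ran from 0.143 to 0.230 CPM. Atp5g1 stood at 132 CPM in replicate 1 of batch B, where the others ran from 113 to 117 CPM.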

How the results depend on the processing

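The number of members that passed from P5 to P15 stayed between 64 and 68 under the other settings and between 65 and 68 with any library left out. With a library left out it was 60 to 64 from P5 to P28, 68 to 71 from P5 to P10, 63 to 70 from P7 to P10, 13 to 22 from P15 to P21 and 0 from P21 to P28. From P10 to P15 it was 0 to 1 (1 without replicate 3 of P7 and 1 without replicate 2 of P10). The step from P5 to P7 was the least stable: 22 members passed under total counts, 11 with no batch term, 23 without the batch B part of P5, 13 with P5 libraries summed by number and 4 with the exon union length trend. Over all genes the calls rose too, from 1698 of 15373 to 3035, 3586, 4573 (of 15253), 3571 (of 15285) and 1762 in the same order. Leaving out a library gave 1 to 4 members (1 without replicate 1 of P5 in batch B or replicate 2 of P7, 4 without replicate 3 of P5 in batch B). Its median log2 change was -0.13, 0.060, 0.11 and 0.064 under the first 4 of these settings and -0.086 to 0.053 with a library left out, and Uqcrc2 turned from -0.03 to 0.22 (adjusted p = 0.0106 by edgeR) with batch B left out of P5. The cause was not tested. The median from P7 to P10 was 0.45 with no batch term, 0.45 with batch B left out of P5, 0.45 with P5 summed, 0.48 with the length trend, 0.47 with the exon union length, and 0.50 to 0.64 with a library left out. Under total counts the medians were 0.36 for P15, 0.31 for P28 and 0.41 for P10 against P5, and the log2 of the summed level of P15 over P5 was 0.37 for complex I and 0.49 for complex IV. With the exon union length the median of P10 against P5 was 0.48. The isoform ratios kept their sign with the P5 libraries of batch A alone, where 3 against 3 libraries cannot pass. For P15 they were -0.27 for Cox7a2 over Cox7a2l, 0.40 for Atp5g1 over Atp5g2 and -0.34 for Atp5g2 over Atp5g3. For P28 they were -0.24 for Cox7a2 over Cox7a2l, 2.26 for Ndufa4 over Ndufa4l2 and -0.16 for Atp5g1 over Atp5g3. With a library left out those at P15 ran from -0.32 to -0.23, 0.30 to 0.37 and -0.32 to -0.25, and those at P28 from -0.29 to -0.21, 1.44 to 2.35 and -0.19 to -0.14, and several no longer passed with fewer libraries. Without replicate 2 of P5 in batch A they were -0.30, 0.36 and -0.30 at P15 and -0.27, 2.06 and -0.16 at P28, and without replicate 3 of P5 in batch B -0.26, 1.99 and -0.17 at P28. With the replicate number as a replicate block, 67 members passed from P5 to P15, 64 from P5 to P28, 70 from P7 to P10 and from P5 to P10, 18 from P15 to P21, 3 from P5 to P7 and 0 in both other steps. Of 8408 values of the 33 named members tested, 8231 kept their side of the threshold and direction, 94 no longer passed, 82 newly passed and 1 reversed. Genes near the floor of 3 counts are limited by depth.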

Other observations

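Of 54 tested assembly factors of the chain, which help build the complexes without being part of them, 33 rose from P5 to P15 and 2 fell (median log2 change 0.29), beside 31.6% and 31.8% of all genes tested. Atpaf1, a chaperone for the ATP synthase head, rose by 1.19, from a mean of 7.74 to 17.4 CPM, and Cox17, a copper chaperone of complex IV, by 0.85, from 12.3 to 22.6 CPM. The complex I factors Ndufaf6 and Ndufaf2 fell by 0.77 and 0.56.

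Of the 13 mitochondrially encoded subunits, 7 were tested: mt-Nd6 and mt-Nd5 rose by 1.73 and 1.45 from P5 to P15, mt-Nd2 rose as well (65.4 to 193 CPM at P5 and 433 to 521 at P15), and mt-Co1 and mt-Nd1 fell by 1.07 and 0.77. The levels of mt-Nd5 were 113 to 356 CPM at P5 and 834 to 964 at P15, with a mean of 218 at P28. In the deposited counts mt-Co3, a core subunit of complex IV, was 0 in all P5, P15 and P28 libraries and mt-Co2 averaged 0.0197 CPM at P5, while mt-Co1 of the same complex averaged 649 CPM. How the reads of these genes were assigned is not given in the sources used here.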
